A study of Mus musculus with 12 samples.

Results

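Nfe2l2 encodes Nrf2, a transcription factor that cells keep scarce in the absence of stress. Keap1, its cytosolic sensor, holds Nrf2 for ubiquitination and degradation, and oxidants or electrophiles that modify Keap1 let Nrf2 accumulate and enter the nucleus, where it pairs with a small Maf protein on antioxidant response elements. Its classical targets reduce quinones (Nqo1), break down haem (Hmox1), make glutathione (Gclc and Gclm, the catalytic and the modifier subunit of glutamate-cysteine ligase) and reduce thioredoxin (Txnrd1). Superoxide and hydrogen peroxide are removed by cytosolic Sod1, mitochondrial Sod2 and peroxisomal Cat. Because Nrf2 is controlled largely through its protein, the level of its own messenger RNA does not report its activity. The activity of Nrf2 itself was not measured here.

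These 10 genes were followed in the mouse hippocampus, out of 23361 gene names in the tables. They were listed by name for their place in the pathway, a choice made with earlier results of these data known, and each was read from the transcript row with the most reads. Expression was measured by SAGE-Seq, which counts messenger RNAs by a short tag cut at the NlaIII site (CATG) closest to their 3′ end, in 12 libraries, each from 1 hippocampus of 1 wild type C57/BL6 mouse. The groups of 3 libraries were aged mice (14 to 17 months) and young mice (5 to 6 months), kept for several weeks in environmental enrichment (EE) or in standard housing (SH). All were males of a cohort tested in the water maze, the SH controls included, and all 12 barcoded libraries were sequenced together. Levels are given in RPM, the reads of a gene for every 1000000 reads of the library, where the library size is the reads summed over 1 transcript row per gene, multiplied by its TMM factor (0.940 to 1.07), a scaling between libraries. The 3 values of a group are given in the order of its replicates 1, 2 and 3.

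Over 1 transcript row per gene, between 4894626 reads (aged SH 3) and 11259821 reads (aged EE 3) were recovered per library, and intervals from such reads would cover counting error only. The 7 neuronal, 8 astrocytic and 8 microglial markers all had reads in every group. Some libraries stood apart in what tissue they held. Markers of dorsal minus ventral hippocampus were 1.81 to 2.25 on the log2 scale in aged EE 1, aged EE 3, young SH 1 and young SH 3, against -0.51 to 0.21 in the other 8 libraries. Aged EE 3 held 1355 RPM over 10 choroid plexus markers, against 84.8 to 187 RPM elsewhere, although Ttr and Steap1 of that list were at 0 in some libraries. The 5 red blood cell markers summed to 3273 to 7633 RPM in the young SH libraries and to 1229 to 3273 RPM in the other 3 groups. Whole tissue was measured, so fewer cells of a type and less RNA per cell cannot be told apart.

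The tag read for each gene is the one at the NlaIII site nearest to the 3′ end of its transcript that leaves room for a whole tag. Those of 5 genes are printed because the comparisons turn on them, with the NlaIII site in capitals. They were read from the NCBIM37 genome (mm9, the build the authors mapped to) and located with GENCODE vM1, in which each was found in 1 protein-coding gene.
Nfe2l2: CATGttacgtgatgaggatggaaagc
Nqo1: CATGgcgcccagggggttggctctcc
Txnrd1: CATGtatttttattacaatttttctg
Sod1: CATGagaaacaagatgacttgggcaa
Sod2: CATGttttagatatttggaaaatact
The Nfe2l2 tag lies at chr2:75514113-75514138 on the minus strand, in coding sequence of the last of 5 exons and 563 bases from the transcript's end. A further NlaIII site is only 8 bases from that end and leaves no room for a whole tag. The printed tag is thus not at the site closest to the end, and messenger RNAs cut at that last site would not give it. Whether this differed between libraries was not tested. The Nqo1 tag (chr8:109912249-109912274, minus strand), the Txnrd1 tag (chr10:82360395-82360420, plus strand) and the Sod2 tag (chr17:13210936-13210961, plus strand) are in the 3′ untranslated region, whereas the Sod1 tag (chr16:90226398-90226423, plus strand) is in coding sequence of exon 5. The tags of Keap1, Hmox1, Gclc, Gclm and Cat lie in 3′ untranslated regions. The 4 deposited Txnrd1 transcripts share their reads and cannot be told apart. The 4 Keap1 transcripts differ little, with 5004 reads for the longest (4470 bases) and 4971 for each of the others, so reads away from the last site were counted as well.

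The 10 genes spanned a wide range of levels. Sod1 was the most abundant, with a mean of 165 RPM over the 12 libraries, followed by Txnrd1 at 125 RPM and Sod2 at 110 RPM. Keap1 (47.6 RPM) and Gclc (46.7 RPM) came next, then Gclm at 14.7 RPM, Cat at 7.90 RPM and Nfe2l2 at 4.84 RPM. Nqo1 was rare at 1.30 RPM, with 137 reads in all. Hmox1 was the rarest at 0.49 RPM, with 53 reads in all and 1 to 9 in a library, and it alone did not pass the filter on low counts. Of the 9 genes that passed, 8 were over the filter's minimum in all 12 libraries. Nqo1 was over it in 6 libraries, of which 3 were aged EE, 2 aged SH and 1 young SH.

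**Figure D1:**
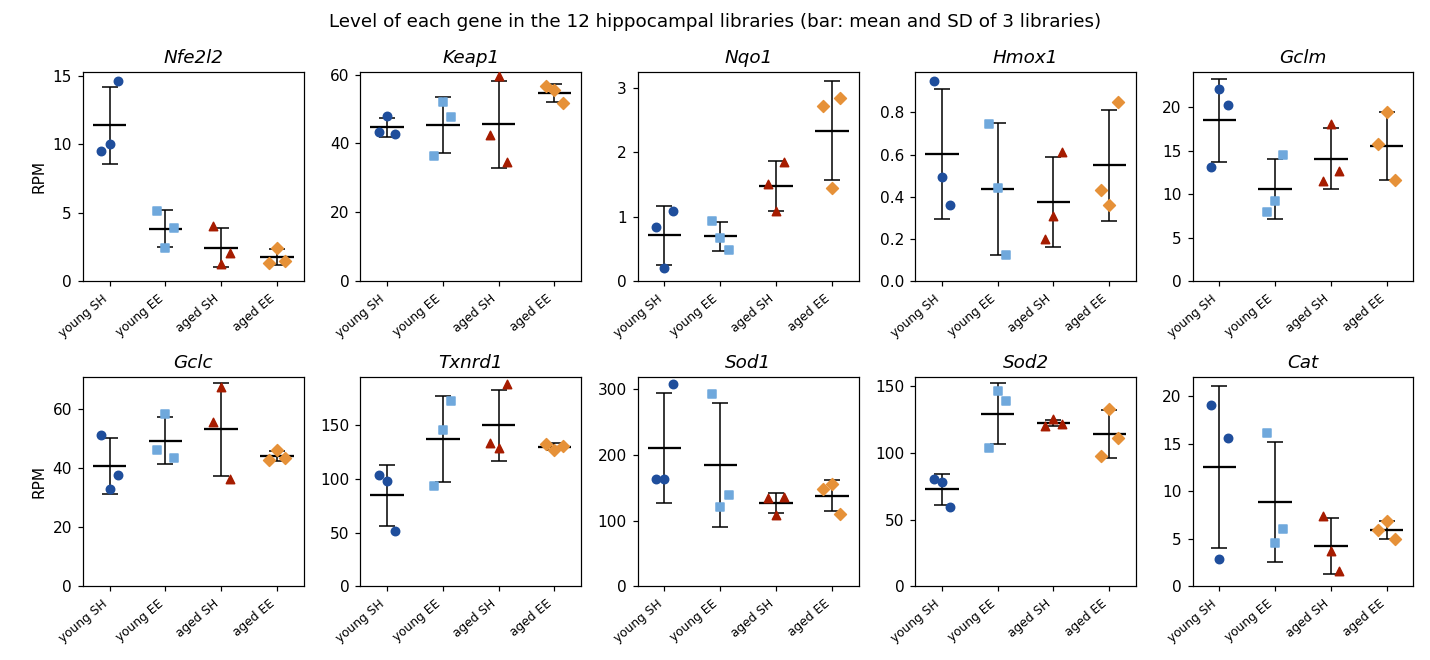
Level of each gene in RPM (vertical axis from 0, scaled per gene) in the 12 libraries, by group; points are libraries and bars are the mean and SD of 3 libraries. The young SH libraries sit apart from all others for Nfe2l2 (9.51 to 14.6 RPM), Txnrd1 is lowest on average in that group, and Sod2 is at or below 80.7 RPM only there.

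Nfe2l2 was highest in young SH mice. It was measured at 9.51, 10.02 and 14.6 RPM in young SH, at 5.12, 2.44 and 3.91 RPM in young EE, at 4.02, 1.24 and 2.05 RPM in aged SH and at 1.30, 2.41 and 1.51 RPM in aged EE. All 3 young SH libraries lay above the other 9, while the ranges of young EE and aged SH overlapped, as did those of aged SH and aged EE. The group means were 11.4 ± 2.81 RPM in young SH, 3.82 ± 1.34 RPM in young EE, 2.43 ± 1.43 RPM in aged SH and 1.74 ± 0.59 RPM in aged EE (SD, n = 3 each), and they rest on 312, 109, 58 and 48 reads. Keap1 did not share this order. It was at 56.7, 55.5 and 51.7 RPM in aged EE, 42.6, 59.5 and 34.6 RPM in aged SH, 36.3, 52.1 and 47.6 RPM in young EE, and 43.2, 47.9 and 42.9 RPM in young SH. Its 4 group ranges overlapped from each to the next, and the highest library was 1.72 times the lowest, against 11.8 times for Nfe2l2.

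Among the classical targets, Nqo1 had its highest group mean in aged EE (2.33 ± 0.77 RPM, SD, n = 3) and its lowest in young EE (0.70 ± 0.22 RPM, SD, n = 3). It was at 2.72, 1.45 and 2.84 RPM in aged EE, 1.51, 1.08 and 1.84 RPM in aged SH, 0.93, 0.67 and 0.49 RPM in young EE, and 0.85, 0.20 and 1.09 RPM in young SH. Neighbouring groups overlapped throughout this order, the 2 young groups included. Gclm was at 15.7, 19.4 and 11.6 RPM in aged EE, 11.5, 18.1 and 12.7 RPM in aged SH, 8.01, 9.20 and 14.5 RPM in young EE, and 13.1, 22.1 and 20.3 RPM in young SH, with overlap between all neighbours. Its partner subunit Gclc ranged from 32.9 to 67.3 RPM, and its lowest mean was in young SH (40.6 ± 9.51 RPM, SD, n = 3), where Gclm had its highest (18.5 ± 4.76 RPM, SD, n = 3), but neighbouring groups overlapped for Gclc too. Hmox1 ranged from 0.12 to 0.95 RPM and its ranges overlapped in all 4 groups, so that no difference was detectable at this depth.

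Txnrd1 and Sod2 had their lowest values in young SH. Txnrd1, the cytosolic thioredoxin reductase, was at 104, 97.9 and 51.5 RPM in young SH, 93.1, 145 and 172 RPM in young EE, 133, 128 and 187 RPM in aged SH, and 132, 126 and 130 RPM in aged EE. The young SH range lay below both aged groups and overlapped young EE through young EE 1. Sod2 was at 80.7, 78.1 and 59.6 RPM in young SH, 104, 146 and 139 RPM in young EE, 120, 125 and 122 RPM in aged SH, and 97.6, 133 and 111 RPM in aged EE. All 3 young SH libraries lay below the other 9, whose groups overlapped. The means were 72.8 ± 11.5 RPM in young SH against 114 ± 17.9 to 130 ± 22.7 RPM in the other groups (SD, n = 3).

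Sod1 and Cat owed much of their spread to single libraries. Sod1 was at 163, 162 and 307 RPM in young SH and at 292, 120 and 139 RPM in young EE, so that young SH 3 and young EE 1 stood above the 109 to 163 RPM of the other 10 libraries. It was at 135, 109 and 136 RPM in aged SH and 148, 155 and 110 RPM in aged EE. Cat was at 19.02, 2.88 and 15.6 RPM in young SH, 16.1, 4.54 and 5.99 RPM in young EE, 7.43, 3.71 and 1.64 RPM in aged SH, and 5.97, 6.88 and 5.01 RPM in aged EE. Its 3 highest libraries, young SH 1, young EE 1 and young SH 3, were all young, but young SH 2 was lower than all but 1 library, and the highest was 11.6 times the lowest.

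The effect of age in standard housing was the comparison in which members passed the test. Nfe2l2 fell in aged SH against young SH, from a mean of 11.4 RPM to one of 2.43 RPM, a log2 fold change of -1.62 (SE 0.26, 95% interval -2.19 to -1.05, limma adjusted p = 0.0319). Sod2 rose from a mean of 72.8 RPM to one of 122 RPM, a log2 fold change of 0.75 (SE 0.18, interval 0.36 to 1.13, limma adjusted p = 0.0808). The tests were made on log2(RPM + 2) in 1 fit of all 4 groups, called at an adjusted p under 0.1, so fold changes of rare genes are understated. The 2 called of 9 tested stand beside 434 of 13138 genes called (3.3%), 161 higher and 273 lower in aged SH. The remaining members did not pass: Txnrd1 was higher by 0.85 (SE 0.28, interval 0.24 to 1.46) with a limma adjusted p of 0.147, Sod1 lower with a log2 fold change of -0.67 (interval -1.38 to 0.04) and Cat with one of -1.07 (interval -2.25 to 0.11). Keap1 had a log2 fold change of -0.0042 (interval -0.43 to 0.42), Gclc of 0.35 (interval -0.15 to 0.85), Gclm of -0.34 (interval -0.92 to 0.24) and Nqo1 of 0.37 (interval -0.02 to 0.76). The libraries of both groups did not overlap for Nfe2l2 and Sod1, which were lower, and for Txnrd1 and Sod2, which were higher, that is for 4 of 9 members against 24.7% of all tested genes. The members' median log2 fold change was -0.0042 and that of all genes -0.01.

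Both calls depended on single libraries. Over the 12 fits that each left out 1 library, the log2 fold change of Nfe2l2 stayed between -1.86 and -1.42, but its limma adjusted p was 0.123 without aged SH 3 and 0.131 without young SH 3. Sod2, between 0.62 and 0.83, kept an adjusted p under 0.1 only without young EE 1, young EE 2 or young SH 2, and its limma adjusted p reached 0.287 without young SH 3. Without young SH 2, Cat and Txnrd1 were called as well (4 members), and without young EE 1 Txnrd1 was (3 members). The count over all genes moved too, to 1 without young SH 3, to 1218 without young EE 1 and to 1238 without young SH 2. The 8 libraries the study compared leave out aged EE 2, young EE 3, aged SH 1 and young SH 3. With them, Nfe2l2 had a log2 fold change of -1.70 and Sod2 of 0.63. Both had a limma adjusted p of 0.635, and 0 genes were called in all. The edgeR quasi-likelihood test on recovered reads called the same 2 members, Nfe2l2 with a log2 fold change of -2.17 (adjusted p = 0.0779) and Sod2 with one of 0.75 (adjusted p = 0.0976), where it called 2.69% of all genes. The likelihood ratio test (7.4% of all genes) and DESeq2 (8.72%) called Txnrd1 beside them, 3 members each.

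**Figure D2:**
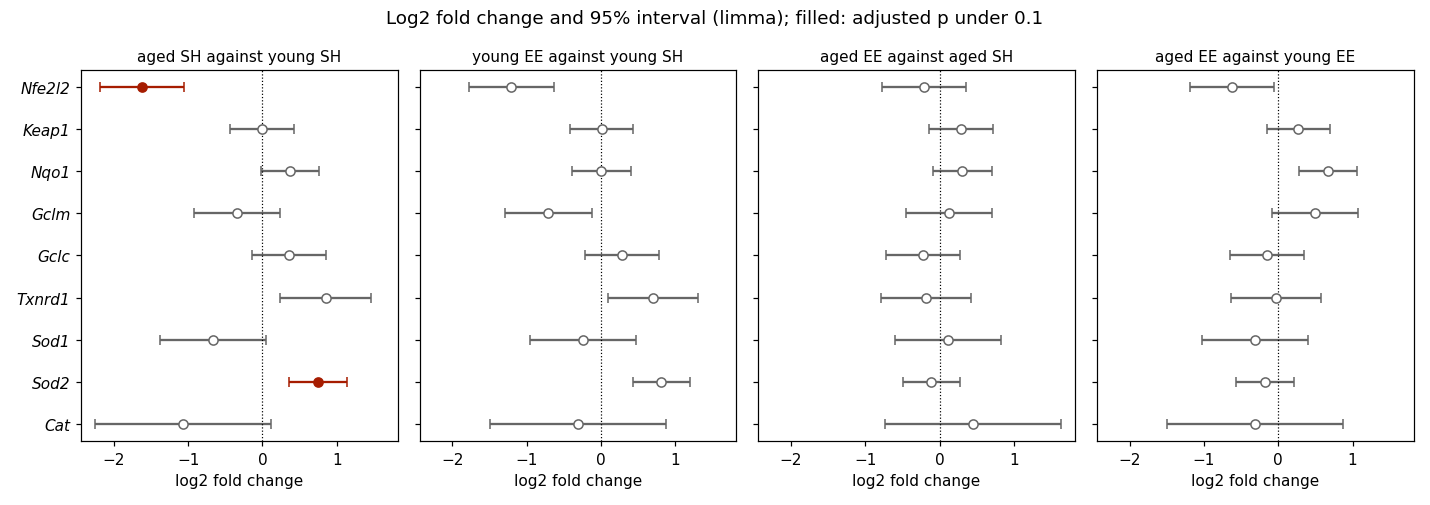
Log2 fold change (horizontal axis) with its 95% interval from limma for the 9 genes tested, in the 4 comparisons of single groups; filled points have an adjusted p under 0.1. The 2 filled points are Nfe2l2 (-1.62) and Sod2 (0.75) in aged SH against young SH, and the comparisons that share the young SH libraries are not independent of each other.

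The effect of enrichment in young mice was measured against the same young SH libraries. Nfe2l2 had a log2 fold change of -1.21 in young EE against young SH (SE 0.26, interval -1.77 to -0.64) and Sod2 one of 0.81 (SE 0.18, interval 0.42 to 1.20), but both had a limma adjusted p of 0.279 and neither was called. In these 2 genes the 6 young libraries did not overlap by housing, Nfe2l2 being lower in EE (as for 6.05% of all genes) and Sod2 higher (as for 6.84%). Gclm had a log2 fold change of -0.71 (interval -1.29 to -0.13) and Txnrd1 one of 0.70 (interval 0.09 to 1.31). No member was called by limma, against 19 of 13138 genes (0.145%, all lower in EE), and 4 of 9 had an unadjusted p under 0.05, against 9.87% of all genes. The quasi-likelihood test called none either (0.0837% of all genes), whereas the edgeR likelihood ratio test (0.502% of all genes) and DESeq2 (0.883%) each called 2, Nfe2l2 and Sod2. Without young EE 1, limma called both, Nfe2l2 with a log2 fold change of -1.37 (adjusted p = 0.0444) and Sod2 with one of 0.95 (adjusted p = 0.0299), when 376 genes were called in all. Keap1, Nqo1 and Gclc had log2 fold changes of 0.0081 (interval -0.42 to 0.44), 0.0034 (interval -0.39 to 0.40) and 0.28 (interval -0.22 to 0.78).

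In aged mice, EE and SH did not separate any of the 10 genes. All 9 tested had overlapping libraries, which held for all but 17.2% of genes, and 0 had an unadjusted p under 0.05, against 8.79% of all genes. None was called by limma, against 1 of 13138 genes (0.00761%), or by the edgeR quasi-likelihood test (0% of genes). The likelihood ratio test (0.122%) and DESeq2 (0.769%) called none either, but DESeq2 gave Nqo1 no adjusted p. The log2 fold changes of aged EE against aged SH ran from -0.22 for Gclc (interval -0.72 to 0.28) to 0.45 for Cat (interval -0.73 to 1.63). For Nfe2l2 it was -0.21 (interval -0.78 to 0.36), for Sod2 -0.11 (interval -0.50 to 0.27), for Nqo1 0.31 (interval -0.09 to 0.70) and for Keap1 0.28 (interval -0.14 to 0.71). For Gclm it was 0.12 (interval -0.46 to 0.71), for Txnrd1 -0.18 (interval -0.79 to 0.43) and for Sod1 0.11 (interval -0.60 to 0.82). The intervals of Nfe2l2, Sod2, Gclm and Txnrd1 do not reach the point values these 4 genes had in the young comparison. Those values carry error too. For Nfe2l2, Gclm and Txnrd1 the young and aged intervals overlap, and among these 4 genes only those of Sod2 do not.

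The housing effects of the 2 ages were compared directly. Their difference was -0.92 for Sod2 (SE 0.25, interval -1.47 to -0.38, limma adjusted p = 0.246), 0.999 for Nfe2l2 (SE 0.37, interval 0.20 to 1.80, limma adjusted p = 0.311), 0.84 for Gclm (interval 0.01 to 1.66) and -0.88 for Txnrd1 (interval -1.74 to -0.02). These 4 of 9 members had an unadjusted p under 0.05, against 12.2% of all genes, yet none was called by limma, as was the case for all 13138 genes (0%), by the quasi-likelihood test (0%) or by the likelihood ratio test (1.34%), and DESeq2 (2.29% of genes) called 1, Sod2. Averaged over both ages, EE against SH gave log2 fold changes of -0.71 for Nfe2l2 (interval -1.11 to -0.31) and 0.35 for Sod2 (interval 0.08 to 0.62), both with a limma adjusted p of 0.780. The count of members called was 0 by each of the 4 tools, 2 of 9 had an unadjusted p under 0.05 (6.35% of all genes), limma and the quasi-likelihood test called 0% of genes, and the likelihood ratio test and DESeq2 0.0152% each.

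Among enriched mice, the libraries of the 2 ages stood apart for Nqo1 and Nfe2l2. Nqo1 was higher in aged EE than in young EE with a log2 fold change of 0.67 (SE 0.18, interval 0.28 to 1.06) and Nfe2l2 lower with one of -0.62 (SE 0.26, interval -1.19 to -0.05). Neither was called, both with a limma adjusted p of 0.629, and limma called 0% of all genes. The quasi-likelihood test (0% of genes), the likelihood ratio test (0.152%) and DESeq2 (0.373%) called 0 members too. DESeq2 gave Nqo1 no adjusted p here, in EE against SH within either age or for housing by age, so it could not call Nqo1 there. By limma 2 of 9 had an unadjusted p under 0.05, against 7.73% of genes. The 6 libraries did not overlap for these 2 of 9 members, against 16.5% of all genes. Nqo1 was over the filter's minimum in 3 aged EE and 2 aged SH libraries, but in 0 young EE libraries and 1 young SH library. It passed the filter only through the aged groups in which it was high. Its comparisons by age, here and over both housings, are therefore descriptions only. Averaged over both housings, aged against young gave -1.12 for Nfe2l2 (SE 0.18, interval -1.52 to -0.72), whose p ranked 3 of 13138 genes, and 0.52 for Nqo1 (SE 0.13, interval 0.24 to 0.80), both with a limma adjusted p of 0.153. By limma and by the quasi-likelihood test 0 members were called, and 0% of all genes were by limma, while the likelihood ratio test (6.9% of genes) and DESeq2 (7.73%) each called 2, Nfe2l2 and Nqo1. Limma called these 2 as well without young EE 2 (adjusted p = 0.0316 and 0.0789), when 852 genes were called in all. Of 9 members 3 had an unadjusted p under 0.05, against 16.3% of genes.

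Nfe2l2 was highest and Sod2 lowest in the young SH libraries, and a correlation over all libraries includes this group difference. Within young SH, young EE and aged SH, the libraries ranked in opposite orders for the 2 genes. In aged SH, however, Sod2 spanned only 120 to 125 RPM. Within aged EE the libraries ranked in the same order, with Nfe2l2 at 1.30, 2.41 and 1.51 RPM and Sod2 at 97.6, 133 and 111 RPM. Over the 12 libraries, Pearson's r of log2(RPM + 2) was -0.79 between Nfe2l2 and Sod2, -0.76 between Nfe2l2 and Txnrd1, and 0.85 between Txnrd1 and Sod2. Sod1 had an r of 0.70 with Nfe2l2, 0.69 with Cat and -0.79 with Txnrd1. Keap1 had an r of -0.52 with Sod1, -0.44 with Nfe2l2 and 0.41 with Gclm, and Gclm and Gclc, which form 1 enzyme, had an r of -0.35. These are descriptions over libraries that share groups and depth. The mean log2 level of the 5 red blood cell markers was 7.41 to 9.30 in the young SH libraries and 5.78 to 6.94 in the other 9, and it had an r of 0.85 with Nfe2l2, -0.91 with Sod2, -0.79 with Txnrd1 and 0.69 with Sod1. Markers of other cell types, each list again taken as its mean log2 level, were correlated with these genes as well. Summed RPM ranked the libraries otherwise. Young SH 3, with the most Sod1, had a neuronal mean log2 of 8.44 (8.07 to 8.68 over the libraries) but a sum of 7493 RPM (7150 to 9940 RPM). Young EE 1 had the lowest endothelial sum, 245 RPM, but a mean log2 of 4.05 (3.74 to 4.34 over the libraries). The markers within these lists thus did not all move together. Sod1 had an r of 0.79 with the neuronal, 0.63 with the endothelial and -0.65 with the leptomeningeal markers, Txnrd1 one of -0.70 with the astrocytic, 0.69 with the leptomeningeal and -0.63 with the neuronal markers, and Sod2 one of -0.64 with the astrocytic markers. By position, Sod2 had an r of -0.59 and Nfe2l2 one of 0.15 with the dorsal minus ventral difference. That difference was 2.04, -0.51 and 2.22 in the 3 young SH libraries, where Nfe2l2 was at 9.51, 10.02 and 14.6 RPM and Sod2 at 80.7, 78.1 and 59.6 RPM. The part of these markers in the results was not tested. Nqo1 had an r of 0.59 with the oligodendrocyte markers and 0.53 with those of choroid plexus, and it was at 2.72 RPM in aged EE 1, where the choroid plexus markers summed to 187 RPM, and at 2.84 RPM in aged EE 3, where they summed to 1355 RPM.

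**Figure D3:**
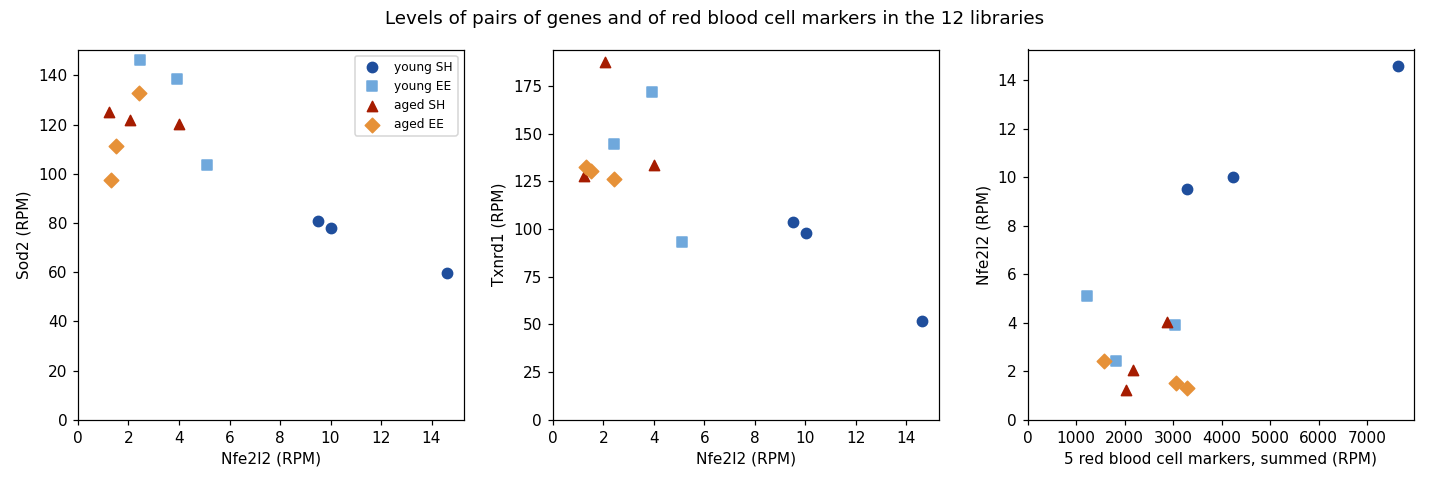
Levels in RPM in each of the 12 libraries: Sod2 against Nfe2l2, Txnrd1 against Nfe2l2, and Nfe2l2 against the sum of 5 red blood cell markers; colours and symbols mark the 4 groups. The 3 young SH libraries lie at the high end of Nfe2l2 and the low end of Sod2, and young SH 3, with the highest sum of red blood cell markers (7633 RPM), also has the most Nfe2l2 (14.6 RPM).

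The genes most like 8 of the members across the 12 libraries came from outside the pathway. For Nfe2l2 they were Raver2, Map3k12 and Mrps27 (r of 0.96 each), for Sod2 Ywhag, Dnd1 and Taf7 (0.96, 0.95 and 0.95), and for Txnrd1 Top2b, Fancl and Hdac7 (0.97, 0.97 and 0.96). Sod1 was followed most closely by Cpsf3, Atp6v1a and Bend6 (0.99, 0.99 and 0.98), and Nqo1 by Kcnab2, Eepd1 and Pkig (0.93, 0.92 and 0.91). For Gclc, Fam193a, Calu and Cenph came first (0.88, 0.87 and 0.87), and for Gclm Slc45a1, Zfat and Chst14 (0.85, 0.78 and 0.78). Cat was most like a gene whose name the tables hold as a date, then Gm4788 and Josd2 (0.95, 0.93 and 0.93). For each of these members they are the 3 highest r among the 13138 genes tested (n = 12 libraries).

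The promoters are shown because Nrf2 binds its targets through a known element. RefSeq windows of 300 bases (250 before to 50 after a start, GRCm38.p6) were matched for 8 of the 10 genes, 10 windows in all, and searched on both strands for the core of the antioxidant response element, TGACNNNGC. It was found in 4 genes, among them Nfe2l2 itself, against 14.0% of the 27025 genes in the table (12.4% of 32851 windows). The 4 matches are shown with flanking bases, the 9 bases of the match in capitals, reading 5′ to 3′ on the strand of the gene.
Nfe2l2: cagcccaccTGACTCCGCcatgccccg
Gclm: ctcccgggcGCACCGTCAactctcacg
Txnrd1: tggatttttGCTTTGTCAttctgacac
Sod1: ccaaggtggGCGTGGTCAgactcaggc
The match in Nfe2l2 (chr2:75704886-75704912) begins 240 bases before the start and is on the gene's own strand. Those in Gclm (chr3:122245414-122245440), Txnrd1 (chr10:82859105-82859131, in 1 of its 3 windows) and Sod1 (chr16:90220697-90220723) begin 134, 92 and 56 bases before it and read on the opposite strand. The windows of Keap1, Nqo1, Sod2 and Cat do not hold these letters, and Hmox1 and Gclc had no window. Elements outside these 300 bases would be missed, so a missing match does not show that a gene lacks one. Binding of Nrf2 was not tested. Of the 4 genes with a match, Nfe2l2 fell in aged SH against young SH and Gclm, Txnrd1 and Sod1 were not called, and Sod2, which rose, had no match.

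The rest of the pathway was read from 8 lists with 99 genes, of which 91 were tested, 82 of them not among the 10. In aged SH against young SH, 1 of these 82 was called (1.22%, against 3.3% of all genes). This was Ggct, a gamma-glutamylcyclotransferase of glutathione breakdown, which fell by 0.75 on the log2 scale (SE 0.17, limma adjusted p = 0.0755). Ggct was at 8.98, 9.42 and 10.5 RPM in young SH, 5.22, 5.88 and 5.74 RPM in young EE, 4.62, 5.87 and 4.30 RPM in aged SH and 6.84, 4.83 and 6.43 RPM in aged EE, so its young SH libraries lay above all others, as those of Nfe2l2 did. Its call was kept only in the fits without young EE 1, young EE 2 or young SH 2 and was lost without any other library, with a limma adjusted p of 0.265 without young SH 3, and with the replicate block (limma adjusted p = 0.105). In the other 6 comparisons limma called 0 of the 82. Their median log2 fold change was 0.02 in aged SH against young SH and 0.07 in aged EE against aged SH, where the medians of all genes were -0.01 and 0.02.

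**Figure D4:**
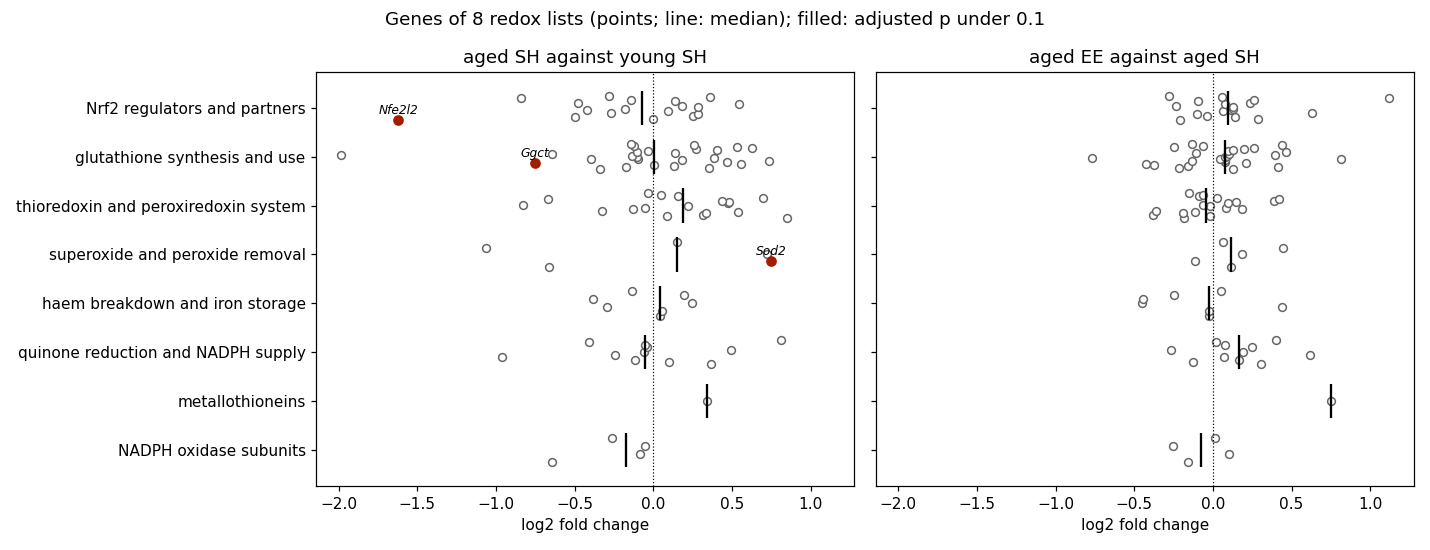
Log2 fold change (horizontal axis) of each tested gene of the 8 lists in aged SH against young SH and in aged EE against aged SH; lines are list medians and filled points have a limma adjusted p under 0.1. The filled points are Nfe2l2 (-1.62), Ggct (-0.75) and Sod2 (0.75), all in aged SH against young SH.

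Of the 18 regulators and partners of Nrf2, 1 was called in aged SH against young SH, against 3.3% of all genes. It was Nfe2l2 itself, and 0 of the 16 that are not members were called. In the whole list 8 had higher and 10 lower values. Sqstm1 encodes p62, which binds Keap1 and takes it to autophagy. Sqstm1 was at 771, 821 and 640 RPM in young SH and 1032, 944 and 1298 RPM in aged SH. These libraries did not overlap, as for 24.7% of all genes, and the log2 fold change was 0.55 (SE 0.16, limma adjusted p = 0.119). Bach1, a repressor that competes with Nrf2 for its elements, had a log2 fold change of -0.42 (SE 0.17, limma adjusted p = 0.213) in the same comparison. Park7, the DJ-1 protein that stabilises Nrf2, was at 24.0, 22.6 and 25.5 RPM in aged EE and 8.03, 18.996 and 6.14 RPM in aged SH, a log2 fold change of 1.12 (SE 0.29, limma adjusted p = 0.530), with aged SH 2 close to the EE libraries. Without aged SH 2 it was 1.52 (limma adjusted p = 0.0665), when 4 genes were called in all. Mafk, a small Maf partner, was at 41.5, 26.8 and 35.6 RPM in aged EE and 27.2, 19.5 and 18.4 RPM in aged SH, which overlapped, and it had a log2 fold change of 0.63 (SE 0.20, limma adjusted p = 0.530). Syvn1, the ubiquitin ligase Hrd1 that degrades Nrf2, had a log2 fold change of 0.68 in young EE against young SH (SE 0.23, limma adjusted p = 0.384).

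Of the 27 genes that make and use glutathione, 14 were higher and 13 lower in aged SH against young SH, with a median log2 fold change of 0.01. Gss, which completes glutathione, had a log2 fold change of 0.42 in aged EE against aged SH (SE 0.16, limma adjusted p = 0.530) and the transferase Gsta3 one of -0.77 (SE 0.29, limma adjusted p = 0.530). Gstm5, another transferase, was at 49.4 RPM in young SH 3 and 40.7 RPM in young EE 1, the same libraries in which Sod1 was highest, and at 1.23 to 8.93 RPM in the other 10. The mitochondrial glutaredoxin Glrx5 had a log2 fold change of -0.48 in young EE against young SH (SE 0.17, limma adjusted p = 0.406). None of these 4 genes was called in any of the 7 comparisons.

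In the thioredoxin and peroxiredoxin list 18 of 19 genes were tested and 12 were higher in aged SH against young SH, with a median log2 fold change of 0.19, but none was called. Prdx4, the peroxiredoxin of the endoplasmic reticulum, had the largest negative value of those named (-0.83, SE 0.28, limma adjusted p = 0.154) and Sesn3 a positive one (0.70, SE 0.26, limma adjusted p = 0.183). The sestrin Sesn1 had log2 fold changes of -0.67 in aged SH against young SH and -0.74 in young EE against young SH, comparisons that share the young SH libraries. Mitochondrial and peroxisomal Prdx5 had one of 0.47 in aged against young over both housings (SE 0.15, limma adjusted p = 0.191), Txnip, which binds and blocks thioredoxin, one of -0.40 (SE 0.15, limma adjusted p = 0.221), and Txnrd3 one of -0.38 in aged EE against aged SH (SE 0.18, limma adjusted p = 0.567). Beside the 3 member enzymes of superoxide and peroxide removal, extracellular Sod3 had a log2 fold change of 0.72 in aged SH against young SH (SE 0.31, limma adjusted p = 0.233) and Ccs, the copper chaperone of Sod1, one of 0.15 (SE 0.16).

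Of the 8 genes of haem breakdown and iron storage, 7 were tested, Hmox1 being the exception, and none had an unadjusted p under 0.05 in any of the 7 comparisons. Hmox2, the constitutive haem oxygenase, was measured at 140 to 203 RPM in all libraries, against 0.12 to 0.95 RPM for Hmox1. Fth1 and Ftl1, the ferritin chains, had log2 fold changes of -0.45 (SE 0.33) and -0.44 (SE 0.40) in aged EE against aged SH, Slc40a1, the iron exporter, one of -0.25 (SE 0.21) and Blvra, biliverdin reductase, one of -0.03 (SE 0.15). Among the 11 genes of quinone reduction and NADPH supply, Ephx1, microsomal epoxide hydrolase, had a log2 fold change of 0.84 in aged against young over both housings (SE 0.21, limma adjusted p = 0.153), beside the 0.52 of Nqo1. In aged SH against young SH the NADPH producers went different ways, Me1 with 0.50 (SE 0.16, limma adjusted p = 0.148) and Pgd with -0.96 (SE 0.33, limma adjusted p = 0.160). Idh1 had one of 0.60 in young EE against young SH (SE 0.25, limma adjusted p = 0.469) and Cbr3, a carbonyl reductase, one of -0.49 (SE 0.18, limma adjusted p = 0.417), and Tkt had one of 0.61 in aged EE against aged SH (SE 0.31, limma adjusted p = 0.590).

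Mt2 was the only 1 of 3 metallothioneins, metal-binding proteins, to pass the filter. It was at 1124, 724 and 1249 RPM in aged EE, 703, 641 and 470 RPM in aged SH, 530, 742 and 496 RPM in young EE, and 465, 600 and 375 RPM in young SH. The aged EE libraries lay above all 3 aged SH libraries, with a log2 fold change of 0.75 (SE 0.26, limma adjusted p = 0.530). In that comparison the libraries did not overlap, in either direction, for 17.2% of all genes. Of the 8 NADPH oxidase subunits, which make superoxide, 4 were tested and all 4 had negative log2 fold changes in aged SH against young SH without passing the test. The membrane subunit Cyba had the largest of them at -0.65 (SE 0.23, limma adjusted p = 0.178), then Rac2 at -0.26, Cybb at -0.09 and Ncf4 at -0.05, and all 4 were rare, at 0 to 3.62 RPM in any library. Among the genes named from the lists that had not passed in aged SH against young SH, limma called Sqstm1, Me1, Pgd and Cyba without young SH 2, Sqstm1, Prdx4 and Me1 without young EE 1, and Prdx4 without young EE 2. In aged against young it called Prdx5 and Ephx1 without young EE 2. Over all genes, the former fits called 1238, 1218 and 587, against 434 with all 12 libraries. The fit of aged against young called 852, against 0 with all 12 libraries.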

How the data were processed

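The labels give 12 hippocampal SAGE-Seq libraries as biological replicates of 4 groups. The authors called colours with Bioscope, mapped tags to NCBI37/mm9 allowing 1 mismatch, counted them over 29973 RefSeq transcripts and scaled them for edgeR. The deposited signal of a library is its reads times a step (0.940 to 1.09), rounded, and dividing by the step returned whole reads within 0.1 read for 100% of values below 1000. The step of young EE 3, 1.01, lies nearest to 1, and 34.6% of its values would be whole at a step of 1. The 12 tables hold the same library values. Log2 ratios, p-values with their FDR and group means that the authors deposited come from their own comparisons and were not used.

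Limma (3.58.1, R 4.3.3) with a variance trend was run on log2(RPM + 2) after TMM scaling, on the 13138 genes that filterByExpr left (edgeR 4.0.16, minimum count 10). The p-values of each of 7 comparisons were adjusted by the Benjamini-Hochberg method and called below 0.1. The plan named this test for scaled values. Alternatives were both edgeR tests and DESeq2 (1.42.0) on recovered reads, other scalings, filters, pseudocounts, samples and thresholds. The code was tested on simulated data.

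The members and lists were chosen with earlier results of these data known. Besides the 10 members, the genes named are, per list, those past the threshold where 4 or fewer passed (otherwise the 4 of smallest p) and the 2 of smallest p in the aged housing, young housing and averaged age comparisons, and the 3 genes most like each member tested, which are not reported here for Keap1. The libraries the study compared were found by matching group means printed in its supplementary tables. Amino acid sequences were not used here.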

Additional observations from a re-analysis of the deposited data

How the results depend on the processing

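The 2 calls in aged SH against young SH were kept with the quasi-likelihood test, other size factors, scaling by library total, the stricter filter (mean of 20 reads), pseudocounts of 0.5 and 8, summed transcripts and only the groups compared. There, 1 member was called without a filter or at a threshold of 0.05 (Nfe2l2 in both) and 0 with the libraries the study compared, and leaving out 1 library gave 0 to 4. In young EE against young SH, 2 were called by the likelihood ratio test and by DESeq2 and 1 with a pseudocount of 8 (Nfe2l2), and leaving out 1 library gave 0 to 2. In aged against young over both housings, 2 were called by the likelihood ratio test and by DESeq2 (Nfe2l2 and Nqo1), and leaving out 1 library gave 0 to 2. Nqo1 passed the filter only through the aged groups, so its calls by age are descriptions only. For housing by age DESeq2 called 1. The log2 fold change of Txnrd1 for EE against SH over both ages changed sign with the libraries the study compared, to -0.017 from 0.26. The cause was not tested for any of these.

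The count over all genes moved with the tool and with single libraries. In aged EE against aged SH (1 gene) it was 0 by the quasi-likelihood test, 16 by the likelihood ratio test, 101 by DESeq2, and 0 without a filter, with only the groups compared, with the libraries the study compared and at 0.05. In young EE against young SH (19 genes) it was 11, 66 and 116 by those tools, 10 with a pseudocount of 0.5, 12 at 0.05, and 0 with only the groups compared or the study's libraries. In aged SH against young SH (434 genes) it was 972 by the likelihood ratio test, 1145 by DESeq2, 163 without a filter, 36 at 0.05 and 0 with the study's libraries. By the likelihood ratio test and DESeq2 it was 20 and 49 in aged EE against young EE (0 genes, 1 with the study's libraries), 2 and 2 in EE against SH over both ages, 906 and 1016 in aged against young (3 with a pseudocount of 8) and 176 and 301 for housing by age. Leaving out 1 library gave 0 to 4 genes in aged EE against aged SH, 0 to 376 in young EE against young SH, 1 to 1238 in aged SH against young SH, 0 to 1 in EE against SH over both ages, 0 to 852 in aged against young and 0 to 387 for housing by age.

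Replicate numbers were read as names of the libraries. Of 18 same-numbered pairs, 4 had deviations correlated above 0.1 (-0.24 to 0.21). Whether a number marks a shared step of handling was not tested. With the number as a replicate block, the count over all genes was 0 in aged EE against aged SH, 12 in young EE against young SH and 208 in aged SH against young SH, where the 2 members were called with the block too, and 0 members were called with it in the other comparisons. Of the other genes named, it ended the call of Ggct and changed no other. Depth limited Hmox1 (53 reads) and Nqo1 (137 reads) most.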
